A study of Sus scrofa with 21 samples.

Results

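The genes described belong to the MHC class I antigen processing pathway and were chosen by symbol from a list of 10, namely PSMB8, PSMB9, PSMB10, PSME1, PSME2, TAP1, TAP2, TAPBP, NLRC5 and B2M. Of these, 9 were found among the 18661 genes of the RNA-seq files, and B2M was not analysed here. The tissue was the distal part of the small intestine, collected at euthanasia from 21 piglets of the Danish Landrace/Yorkshire breed at 24 to 25 days of age, 1 sample per piglet. The control group (n = 10) had received a milk replacer, and the group called starch here (n = 11) the same replacer to which wheat had been added as a source of starch. Both groups were thus fed by replacer, and neither the labels nor the design text gives a sex, litter, batch or sequencing date. Levels of 1 gene were compared between piglets as CPM, the count scaled to the library total adjusted by its TMM factor. Summed levels of cell type markers, also given as CPM, were scaled to the library total without that factor. Levels of different genes were compared as FPKM, which is scaled to library size and transcript length.

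MHC class I molecules carry short peptides from proteins made inside the cell to the surface, where CD8 T cells read them. The proteasome cuts the peptides, and in cells exposed to interferon its constitutive catalytic subunits are replaced by PSMB8, PSMB9 and PSMB10, which form the immunoproteasome. PSME1 and PSME2 form a ring that caps and activates the proteasome, TAP1 and TAP2 form the transporter that moves peptides into the endoplasmic reticulum, tapasin (TAPBP) holds the empty class I molecule beside that transporter, and NLRC5 switches on class I genes in the nucleus. Interferon gamma is the best known inducer of the whole set, and type I interferons induce much of it too. OASL, an oligoadenylate synthetase-like gene known as an antiviral target of type I interferon in human cells, was the gene against which the set was read.

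The identifiers in the files were ENSSSCG00000026951 for PSMB8, ENSSSCG00000001463 for PSMB9, ENSSSCG00000031781 for PSMB10, ENSSSCG00000002006 for PSME1 and ENSSSCG00000002004 for PSME2. TAP1 was ENSSSCG00000025618, TAP2 was ENSSSCG00000025593, TAPBP was ENSSSCG00000001507, NLRC5 was ENSSSCG00000039751 and OASL was ENSSSCG00000009921. In the RefSeq annotation of Sscrofa11.1, used here only for gene order because the build behind the files is not given in the sources used here, TAP2, PSMB8, TAP1 and PSMB9 are consecutive coding genes of chromosome 7 between SLA-DOB and BRD2. TAPBP lies farther along the same chromosome and overlaps ZBTB22. PSME2 and PSME1 are also on chromosome 7, separated by EMC9, in the run REC8, IRF9, PSME2, EMC9 and PSME1. PSMB10 and NLRC5 are on chromosome 6 and OASL is on chromosome 14. PSME1 overlaps EMC9, which held 4.57 to 15.1 CPM in any piglet, and the strand setting of the authors' counting is not given. The EMC9 level depends on that same counting. How reads in this overlap, or in that of TAPBP and ZBTB22, were assigned was not tested. For NLRC5 the files listed 5 transcripts, and 2 of them with the same length of 5541 bases carried equal totals of 39.6% of the gene's count each, so its count rested on reads divided between near-identical models.

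Total expected counts per piglet were 6719264 to 8610458, and the 9 genes were far above the filter on low counts in every piglet. Control 5, control 8 and starch 3 stood apart from the other 18 piglets in tissue markers. The summed level of 8 measured enterocyte markers (VIL1, FABP2, APOA1, APOA4, SI and others) was 1716 to 1721 CPM in these 3 piglets and 9701 CPM or more in the rest, while their smooth muscle markers summed to 24982 CPM or more, beside 19728 CPM or less in the rest. The markers of each cell type were detected in the tissue, and no list had a measured member at 0 in every piglet. In bulk tissue, fewer cells of a type and less RNA per cell cannot be told apart.

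The 2 cap subunits were the most abundant members and the regulator NLRC5 the least abundant. In order of median FPKM over the 21 piglets, PSME2 stood at 498, PSME1 at 366, PSMB8 at 192, PSMB10 at 172, PSMB9 at 156, TAP1 at 114, TAPBP at 102, TAP2 at 58.5 and NLRC5 at 9.15. Each neighbouring pair in this order was compared within piglets by a two-sided sign-flip permutation test on log2 FPKM, with adjustment over the 8 pairs, and 6 pairs differed. PSME2 exceeded PSME1 by 0.55 ± 0.36 (mean log2 difference ± SD, n = 21) in 20 of 21 piglets (permutation adjusted p = 2e-05, from the smallest p the resamples can give). PSMB8 and PSMB10 did not differ beyond their spread (-0.02 ± 0.37, adjusted p = 0.827, permutation test), and neither did TAP1 and TAPBP (0.13 ± 0.55, adjusted p = 0.331, permutation test). TAPBP lay above TAP2 by 0.80 ± 0.38 in 21 of 21 piglets, and TAP2 above NLRC5 by 2.70 ± 0.49 in 21 of 21 (permutation adjusted p = 2e-05 each).

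**Figure D1:**
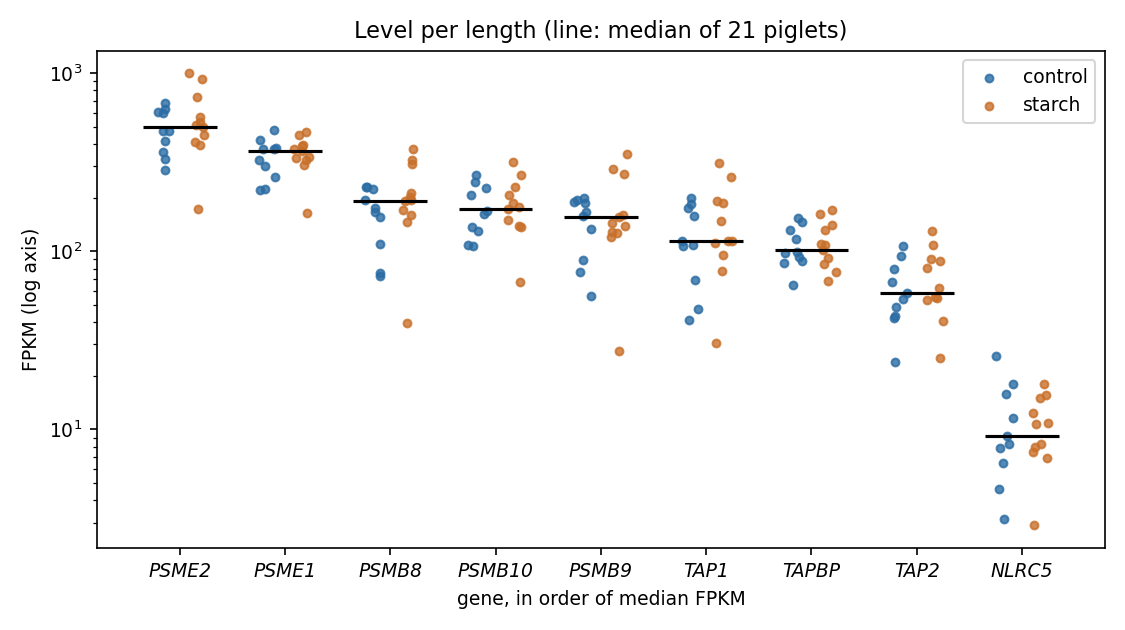
FPKM of each class I processing gene in each piglet on a log axis, controls in blue and starch piglets in orange, with the line at the median of the 21 piglets. PSME2 (median 498) and PSME1 (366) are highest, the 3 immunoproteasome subunits lie together between 156 and 192, and NLRC5 (9.15) is far below.

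The first comparison asked whether the diet with wheat altered the pathway. No member was called between the diets, although all 9 had a mean level at or above that of the controls. The members were correlated with each other across piglets, so the 9 directions were not separate results. Of 13127 genes tested with edgeR's quasi-likelihood test and Benjamini-Hochberg adjustment, 0 (0%) passed an adjusted p of 0.05, so the 0 of 9 members matched the background. At an unadjusted p below 0.05 there were 0 of 9 members, beside 174 genes (1.33% of those tested, 0.404% higher and 0.922% lower with starch). DESeq2 also called 0 genes, with 191 at an unadjusted p below 0.05. The members' median log2 difference (starch minus control) was 0.28, and that of all tested genes was 0.0039. The members' median depended on the processing. It was 0.14 by limma on log2(FPKM + 0.5), 0.19 by voom, and 0.11 with the replicate number as a block, which leaves out starch 11. Leaving out 1 piglet, it ran from 0.15 (without starch 4 or without starch 11) to 0.38 (without starch 5).

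Among the catalytic subunits of the immunoproteasome, PSMB8, which replaces the chymotrypsin-like subunit, had the largest estimate of the set. PSMB8 ranged from 55.5 CPM in control 10 through a median of 129 to 196 in control 2, and from 30.1 in starch 5 through a median of 145 to 311 CPM in starch 4. The starch piglets thus held both the lowest and the highest PSMB8 values, and the groups overlapped over the whole range of the controls. Its log2 difference was 0.43 with an SE of 0.29 and a 95% interval of -0.18 to 1.04 (edgeR adjusted p = 0.9998). PSMB9, which replaces the caspase-like subunit, read 36.1, 89.5 and 123 CPM (lowest, median and highest) in controls and 16.4, 90.2 and 228 CPM in starch piglets. The medians of PSMB9 were nearly equal, and the higher starch mean (108 ± 62.8 CPM, SD, n = 11, against 85.3 ± 32.1, n = 10) rested on 3 piglets above every control, starch 4, starch 11 and starch 3. As FPKM the median of PSMB9 was 161 in controls and 144 in starch piglets. The estimate for PSMB9 was 0.34 (95% interval -0.32 to 1.01). PSMB10, which replaces the trypsin-like subunit, read 77.5, 120 and 206 CPM in controls and 50.3, 140 and 262 CPM in starch piglets, a log2 difference of 0.14 (-0.36 to 0.65) that was 0.03 without starch 4.

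The 2 cap subunits differed in their spread. PSME1 read 122, 224 and 363 CPM in controls and 111, 246 and 366 CPM in starch piglets, so that the ranges of the diets were close to the same, and its log2 difference was 0.12 (95% interval -0.28 to 0.53). PSME2 read 188, 330 and 433 CPM in controls and 113, 351 and 727 CPM in starch piglets. Starch 11 and starch 4 (727 and 708 CPM) lay far above the highest control in PSME2, whereas in PSME1 the highest control (363 CPM, control 2) was level with starch 11. The PSME2 difference was 0.28 (-0.24 to 0.81).

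The transporter and its partner tapasin followed the same layout. TAP1 read 96.2, 257 and 419 CPM in controls and 66.7, 270 and 733 CPM in starch piglets, and its log2 difference was 0.39 (95% interval -0.30 to 1.07). TAP2 read 54.2, 116 and 209 CPM in controls and 53.3, 142 and 298 CPM in starch piglets, a difference of 0.29 (-0.27 to 0.84). TAPBP was the steadiest member, at 101, 149 and 197 CPM in controls and 109, 154 and 254 CPM in starch piglets, with a difference of 0.14 (-0.19 to 0.47). For all 3 genes starch 4 was the highest piglet of the study, and for TAP1 and TAP2 starch 5 was the lowest. NLRC5, the transactivator, was the exception among the members in that its highest piglet was a control. It read 18.3, 50.2 and 130 CPM in controls, with control 3 at the top, and 15.5, 48.7 and 91.8 CPM in starch piglets. The NLRC5 means were 57.5 ± 32.2 CPM (SD, n = 10) and 57.9 ± 22.4 CPM (n = 11), a log2 difference of 0.01 (95% interval -0.60 to 0.62), whose sign turned under upper-quartile scaling (-0.014) and without starch 7 and starch 9 (-0.11).

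**Figure D2:**
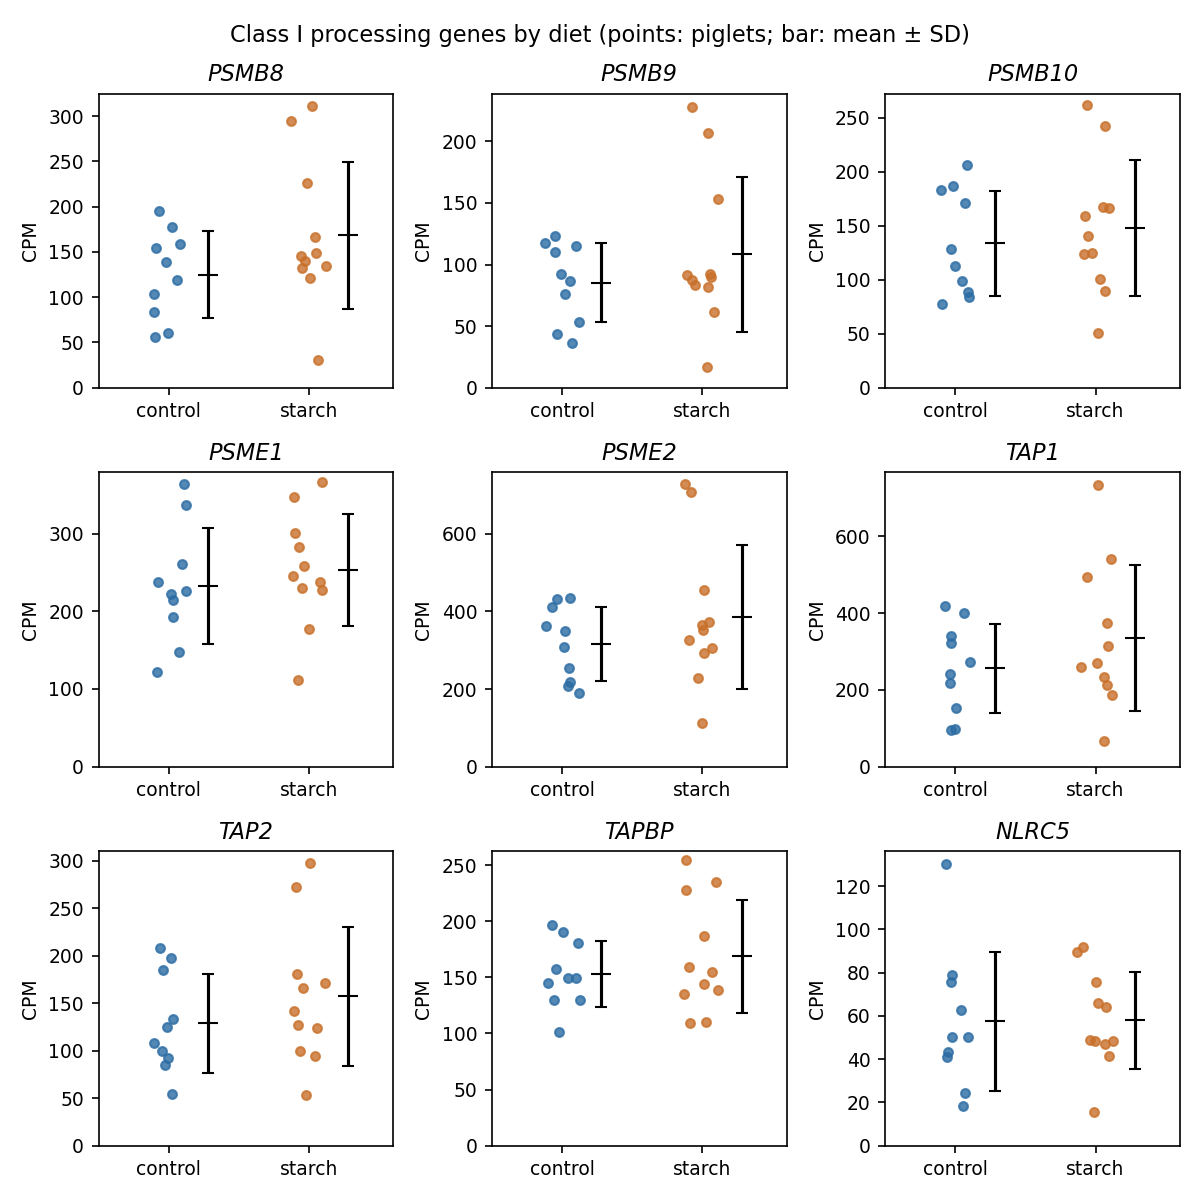
CPM of each class I processing gene in the 10 control and 11 starch piglets, 1 point per piglet, with the bar at the mean ± SD and each vertical axis starting at 0. The diets overlap for every gene, and starch 4 or starch 11 is the highest piglet for all genes except NLRC5, whose highest is control 3 (130 CPM).

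The intervals give what 21 piglets could resolve, from up to 0.47 log2 higher with starch for TAPBP to up to 1.07 for TAP1. Without the 3 piglets low in enterocyte markers, the estimates of the members were -0.016 to 0.39 and none was called. NLRC5 then stood at -0.016, PSME1 at 0.024 and PSMB10 at 0.055, so these 3 were close to 0 among the remaining 18 piglets.

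Levels spread widely between piglets. Over all 21, the highest piglet exceeded the lowest 13.9-fold for PSMB9, 11.0-fold for TAP1, 10.3-fold for PSMB8, 8.43-fold for NLRC5 and 6.42-fold for PSME2. The factors were smaller for TAP2 (5.59), PSMB10 (5.20), PSME1 (3.28) and TAPBP (2.51). The SD of log2 CPM over the 21 piglets was 0.85 for TAP1, larger than that of 89.5% of tested genes, 0.83 for PSMB9 (88.8%) and 0.78 for PSMB8 (86.3%). PSME1 (0.47, 52.9%) was close to the median gene (0.45), and TAPBP (0.36, 31.6%) varied less than most genes.

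The same few piglets were at the ends for most members. Starch 4 was among the 3 highest piglets for 9 of 9 members, starch 11 for 8, starch 3 for 5, control 2 and control 3 for 2 each and starch 9 for 1. Starch 5 was among the 3 lowest for 9 of 9 members, control 10 for 8 and control 7 for 6. In starch 5 PSMB9 read 16.4 CPM beside a median of 90.2 over all piglets, and TAP1 read 66.7 CPM beside 269.7. Starch 11 was high in the proteasome genes and the transporter but not in NLRC5, where it read 47.1 CPM, below the median of 50.1.

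**Figure D3:**
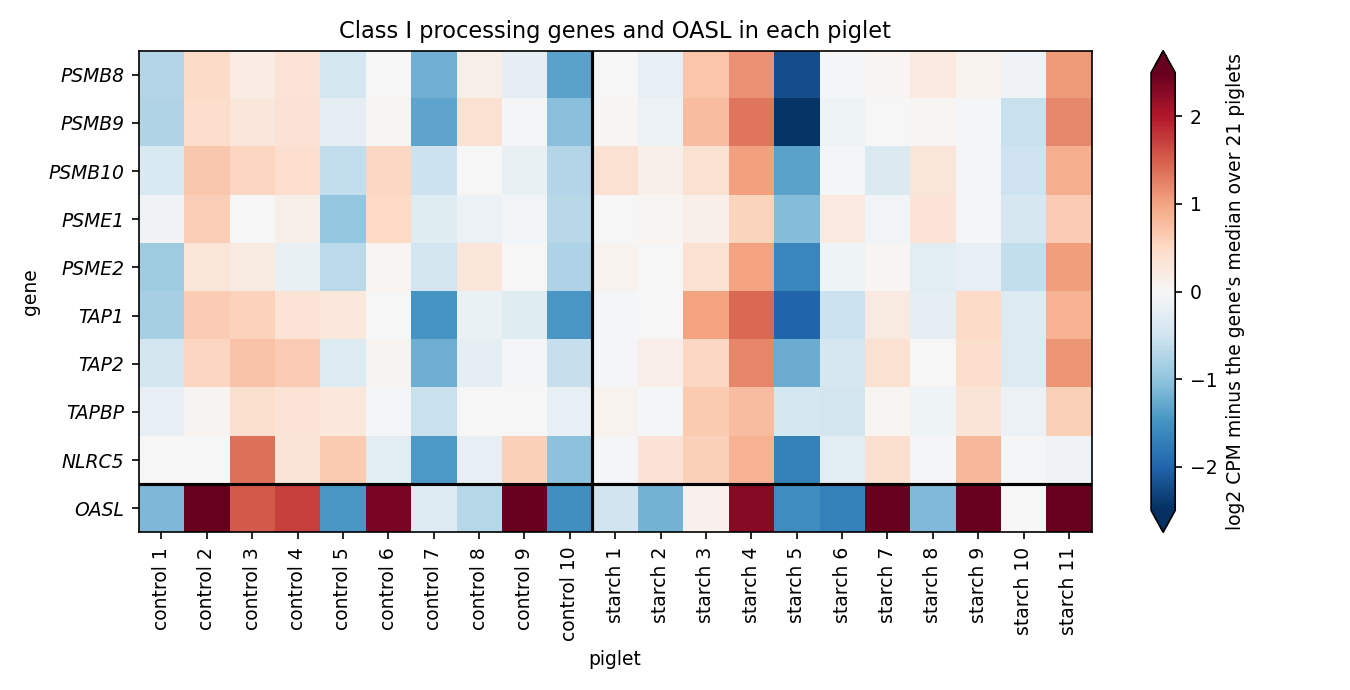
Each cell is the log2 CPM of a gene (rows) in a piglet (columns) minus that gene's median over the 21 piglets, red above and blue below, with colours saturating at 2.5 in either direction and OASL in the bottom row. Starch 4 and starch 11 are red and starch 5 is blue through nearly all class I rows, whereas the OASL row is darkest red in starch 9, starch 7, control 2, control 9 and starch 11, which saturate the scale.

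The members were correlated with each other across piglets. Over the 36 pairs, Pearson's r of log2 CPM ran from 0.380 to 0.978 with a median of 0.825, and 34 pairs had an adjusted permutation p of at most 0.05 (31 by Spearman's rho, n = 21, adjusted over the 36 pairs). How many pairs of other genes pass such a test was not computed, so these counts have no background beside them. The tightest pair was PSMB8 and PSMB9, immunosubunit genes that lie on each side of TAP1, with r = 0.978 and rho = 0.964 (permutation adjusted p = 2e-05, from the smallest p the resamples can give). TAP1 followed both of its neighbours, PSMB8 at r = 0.935 and PSMB9 at r = 0.933, and its transporter partner TAP2 at r = 0.932. The other 2 pairs within the run of 4 consecutive genes were PSMB9 with TAP2 (r = 0.904) and PSMB8 with TAP2 (r = 0.897). PSMB10, on another chromosome, had r = 0.905 with PSME1 and r = 0.900 with PSMB9, and the near neighbours PSME1 and PSME2 had r = 0.808. The 6 loosest pairs all held PSME1, NLRC5 or TAPBP. PSME1 with NLRC5 had r = 0.380 and rho = 0.151, and PSME1 with TAPBP had r = 0.421, and these were the 2 pairs that did not pass by r. Without the 2 piglets farthest from the median of the first gene of a pair, r ran from 0.302 to 0.966. Within the controls it ran from 0.114 to 0.979, and within the starch piglets from 0.603 to 0.987. Both genes of a pair were read in the same libraries.

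Whether the immunosubunits moved relative to the rest of the proteasome was read from FPKM ratios within a piglet. PSMB7, the constitutive subunit that PSMB10 replaces, was the one constitutive catalytic gene measured, and PSMB5 and PSMB6 were not analysed here. The ratio of PSMB10 to PSMB7 was 0.438 in control 5, 0.741 at the median and 1.21 in control 3. Both extremes were thus controls, and the mean log2 ratio was -0.55 ± 0.55 (SD, n = 10) in controls and -0.44 ± 0.36 (n = 11) in starch piglets, a difference of 0.11 (two-sided permutation p = 0.592). Against the mean of 10 other subunits of the 20S core, a denominator added after the data were seen, PSMB8 ran from a ratio of 0.351 in starch 5 to 1.51 in control 4, PSMB9 from 0.247 in starch 5 to 1.39 in starch 4, and PSMB10 from 0.597 in starch 5 to 1.49 in control 4. The diets differed by 0.28, 0.13 and 0.04 log2 in these ratios, with permutation adjusted p of 0.775, 0.839 and 0.839 over the 3 ratios. The starch 5 library was the lowest of the 21 in all 3 of these ratios, and so was low in the immunosubunits also relative to its own 20S core.

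OASL spread far more widely than any class I gene. It read 0.832, 5.59 and 45.2 CPM (lowest, median and highest) in controls and 0.722, 2.90 and 215.7 CPM in starch piglets, a 299-fold range. Its SD of log2 CPM (2.42) was larger than that of 99.5% of tested genes. The highest piglets were starch 9 (215.7 CPM), starch 7 (146.6 CPM), control 2 (45.2 CPM) and control 9 (33.6 CPM). Its diet difference of 1.64 log2 (SE 1.03, 95% interval -0.50 to 3.78, edgeR adjusted p = 0.9998) rested on starch 7 and starch 9, and without them it was -1.13. These 2 piglets were not the high ones of the class I set, where they lay above the median for 6 and 5 of the 9 members, and starch 4, the top class I piglet, ranked number 7 in OASL with 14.98 CPM.

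Each member was then fitted on OASL across the 21 piglets with diet in the model. The slopes were all above 0. They were 0.17 log2 per log2 unit of OASL for TAP1 (95% interval 0.03 to 0.32) and TAP2 (0.07 to 0.28), 0.14 for PSMB8 (0.01 to 0.27) and PSMB9 (-0.0032 to 0.29), 0.12 for PSME2 and NLRC5, 0.11 for PSMB10, 0.09 for PSME1 and 0.07 for TAPBP. By edgeR's quasi-likelihood test 0 of 9 members had an adjusted p of at most 0.05, beside 61 of 13126 genes (0.465%), all of them with a positive slope. The smallest adjusted p was that of TAP2 (0.387), with an unadjusted p of 0.00266. At an unadjusted p below 0.05 stood 5 of 9 members (TAP2, TAP1, PSME2, PSMB8 and PSME1), beside 4.16% of all genes, of which 2.22% had a positive and 1.94% a negative slope. The members were correlated with each other (median r 0.825 over their pairs), so these 5 were not separate results. Without starch 7 and starch 9, the 2 piglets highest in OASL, the slopes were 0.11 (TAPBP) to 0.28 (TAP1), for example 0.24 for PSMB10 and 0.26 for PSMB8. Over all 21 piglets the median slope of the members was 0.12 and that of all genes -0.0041.

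Genes known as targets of type I interferon were fitted in the same way. Of 25 tested genes of that list, 21 passed the adjusted threshold, all upwards, with a median slope of 0.34. IFIT1, which binds viral RNA, had a slope of 0.53 (edgeR adjusted p = 1.68e-10), DHX58, an RNA sensor of the RIG-I family, 0.48 (2.76e-10), and ISG15, a ubiquitin-like modifier, 0.67 (1.35e-09). The 95% intervals of these 3 genes lay above those of all 9 class I genes. Others of the list, such as SAMD9 (0.14) and IRF9 (0.17), had slopes within the range of the class I genes, and the difference between the lists was not tested. Across the proteasome lists, PSMF1, an inhibitor of the proteasome, was the gene called, with a slope of 0.11 (edgeR adjusted p = 0.00871). With the T and NK marker score as a covariate its slope was 0.09 and no longer passed (edgeR adjusted p = 0.0903).

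**Figure D4:**
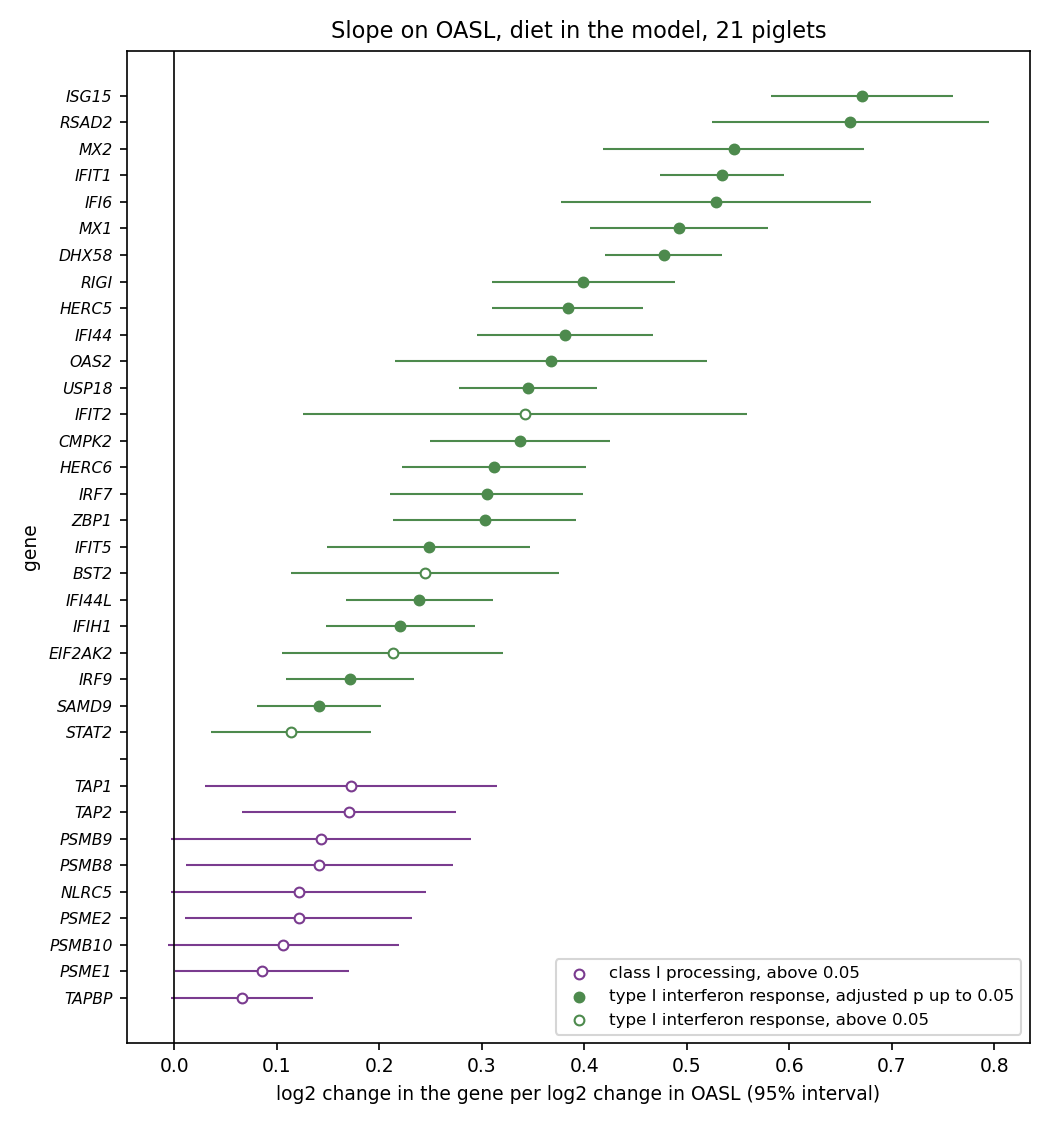
Log2 change per log2 change in OASL with its 95% interval for 25 type I interferon response genes (green) and the 9 class I processing genes (purple), filled where the adjusted p was at most 0.05. The class I slopes lie between 0.07 and 0.17 and are all open, whereas 21 of the 25 interferon genes are filled and reach 0.67 for ISG15.

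Correlation gave a looser view of the same relation. The share of all tested genes passing the same correlation tests was not computed. Counts of members passing by r or rho, here and within each diet, thus have no background beside them. Nor do they count separate results, because the members were correlated with each other. With 21 piglets and adjustment over the 9 members, Pearson's r with OASL was 0.385 (PSMB10) to 0.609 (TAP2), and 1 of 9 members, TAP2, had an adjusted permutation p of at most 0.05 (0.0276). Spearman's rho, which does not weigh how far the highest piglets lie, was 0.435 (PSME1) to 0.705 (TAP2), and all 9 passed, with adjusted permutation p of 0.00477 to 0.0483. Starch 7 and starch 9 were the 2 piglets farthest from the median of OASL. Without them r was 0.392 (NLRC5) to 0.670 (TAP2), and 8 of 9 members passed, with NLRC5 at an adjusted permutation p of 0.0965. Without control 5, control 8 and starch 3, the count was 7, and PSMB10 (r = 0.368) and PSME1 (r = 0.399) were those that did not pass. The count by r moved when single piglets were left out, between 0 and 9. It was 9 without starch 7, 8 without starch 3, 6 without starch 9 and 2 without control 5 or control 9. It was 0 without control 1, control 2, control 10, starch 5, starch 6 or starch 11, and in each of these cases TAP2 had an adjusted permutation p of 0.0507 to 0.0637.

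**Figure D5:**
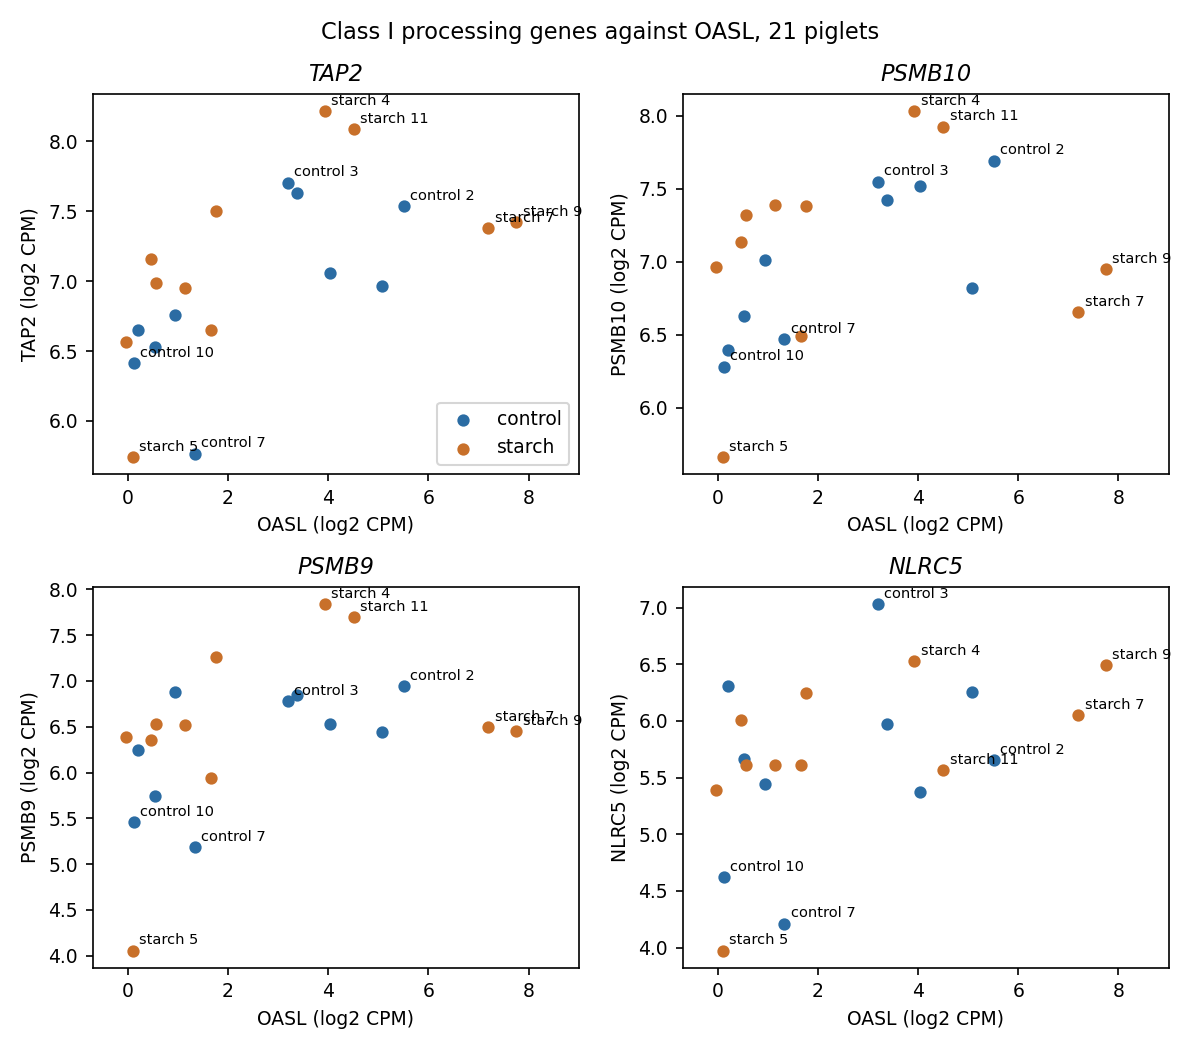
Log2 CPM of TAP2, PSMB10, PSMB9 and NLRC5 against log2 CPM of OASL, 1 point per piglet, controls in blue and starch piglets in orange. Starch 7 and starch 9 lie farthest right at middle heights, while starch 4 and starch 11 are highest for TAP2, PSMB10 and PSMB9 at middle OASL levels.

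The relation was also read within each diet. In the 10 controls r was 0.310 (TAPBP) to 0.802 (PSME1), and PSME1 alone passed by r (adjusted permutation p = 0.0332), joined by PSMB10 on rho (rho = 0.794, adjusted permutation p = 0.0391). In the 11 starch piglets r was 0.180 (PSMB10) to 0.585 (TAP2) and 0 of 9 passed by r, while TAP1, TAP2 and TAPBP passed by rho, each at an adjusted permutation p of 0.0434. Slopes fitted within the controls called 0 of 9 members (0.0348% of 11496 genes called by edgeR) and put 5 of 9 at an unadjusted p below 0.05 (4.26% of genes). These 5 again were not separate results, because the members were correlated with each other. Within the starch piglets 0 of 9 were called (0.322% of 11493 genes), and TAP2 alone had an unadjusted p below 0.05 (2.34% of genes). The difference of the slopes between the diets was itself tested, and 0 of 9 members and 0% of 13126 genes passed (edgeR, smallest adjusted p = 0.985). At an unadjusted p below 0.05 it held 0 of 9 members and 2.65% of genes, 1.7% with a larger slope in starch piglets and 0.952% with a smaller. PSME1 had the smallest p among the members (starch slope minus control slope -0.16, 95% interval -0.32 to 0.01, unadjusted p = 0.0663 by edgeR). Without starch 7 and starch 9, the slope of TAP2 was 0.27 and passed (edgeR adjusted p = 0.0488), which made 1 of 9 members called, beside 0.312% of genes.

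The ratios of the immunosubunits to other subunits were set against OASL in the same way. The r with OASL was 0.471 for PSMB8, 0.444 for PSMB9 and 0.307 for PSMB10 over the 20S core, and 0.366 for PSMB10 over PSMB7, with adjusted permutation p of 0.0805, 0.0805, 0.174 and 0.135 over the 4 ratios (n = 21). By rho the first 2 passed, at an adjusted permutation p of 0.0242 each. Without starch 7 and starch 9 the r values were 0.524, 0.548, 0.562 and 0.570 in the same order.

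The other genes of the pathway gave the setting. In the diet comparison no list had a gene called by edgeR. The 10 measured subunits of the 20S core, which carries the immunosubunits, were all higher on average with starch but by little (median log2 difference 0.09, highest PSMA2 at 0.21), whereas of 17 subunits of the 19S regulatory particle 8 were higher and 9 lower. Of 13 genes that control class I transcription, 12 were higher (median 0.16), RFX5 having the smallest p (log2 difference 0.33 with an SE of 0.19, unadjusted p = 0.0961). Of 13 tested genes of interferon gamma and its targets, 12 were higher (median 0.47), for example SOCS1, a feedback inhibitor of cytokine signalling, at 0.72 ± 0.48 (SE), and IDO1, a tryptophan-degrading enzyme, at 1.30 ± 0.89. The type I interferon list had 23 of 26 higher with a median of 0.31, MX2 at 1.07 and RSAD2 at 1.11. Of 8 genes of peptide trimming and loading, 6 were higher (median 0.05), and 3 of 5 other activators and assembly factors were (median 0.00). FCGRT, the neonatal Fc receptor, was the one class I-like molecule tested, at -0.02.

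On OASL, the 20S core had 10 of 10 positive slopes (median 0.04) with 0 called, and the 19S particle 12 of 17 (median 0.02) with 0 called. Among genes of class I transcription, 10 of 13 slopes were positive with 0 called, and IRF2, an interferon regulatory factor, had a slope of 0.08 (edgeR adjusted p = 0.181). ERAP2, which trims peptides in the endoplasmic reticulum, had a slope of 0.10 (adjusted p = 0.660), with 5 of 8 slopes of its list positive and 0 called. Interferon gamma and its targets had 6 positive and 7 negative slopes of 13, from -0.22 to 0.20, with a median of -0.00 and 0 called. GBP2 was the highest of them at 0.20, and GBP1 stood at 0.14. Of 5 other activators and assembly factors 2 were positive, PSMF1 among them. FCGRT had a slope of 0.03.

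The genes whose levels across the 21 piglets were most like those of the members were ranked by the median of their 9 r values, over 11275 tested genes with a symbol. The 10 highest were IFI35 (0.875), GBP2 (0.857), PPA1 (0.834), REC8 (0.815), LGALS4 (0.803), GBP1 (0.799), ISG20 (0.793), DNASE1L1 (0.784), BATF2 (0.781) and PLEKHA4 (0.781). The median over all ranked genes was -0.02 and the value exceeded by the top 5% was 0.573. GBP1 and GBP2 encode guanylate-binding proteins induced by interferon gamma, IFI35 and ISG20 are interferon-induced genes, and REC8 lies beside IRF9 in the run that holds PSME2 and PSME1. The transcription factor gene IRF1 was rank 52 (0.716) and the chemokine gene CXCL9 rank 56 (0.713). Other genes of the interferon gamma list ranked far lower, such as JAK2 (rank 5239, 0.03) and JAK1 (rank 10698, -0.573). Of the enterocyte markers, KRT20 was rank 11 (0.781) and APOA1 rank 7854 (-0.277). The constitutive core subunits PSMA2 and PSMA1 were ranks 13 and 20, and PSMB7 was rank 347 (0.614). OASL was rank 1530 (0.455), below the value of the top 5%.

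T and NK cell markers were correlated with most members across piglets. The 14 measured markers of 16 listed (CD3D, CD3E, CD2, CD8A, GZMA, NKG7 and others) summed to 121 to 471 CPM in controls (median 207) and 76.3 to 417 CPM in starch piglets (median 194), and none was at 0 in every piglet. Pearson's r of the members with the log2 of that sum was 0.440 (PSME1) to 0.719 (TAP1), and 6 of 9 passed with adjustment over 54 member and marker pairs (TAP1 adjusted permutation p = 0.0140, n = 21). The same 6 members, PSMB8, PSMB9, PSME2, TAP1, TAP2 and TAPBP, passed by rho (TAP1 rho = 0.766). Without the 2 piglets farthest from the median of the marker sum, TAP1 had r = 0.744. OASL itself had r = 0.471 with it. The share of all tested genes passing against this sum or the other marker sums was not computed. The counts of members passing against marker sums thus have no background beside them. With the mean T and NK marker level as a covariate, the slopes of the members on OASL were 0.02 (TAPBP) to 0.10 (TAP2), and their diet estimates were 0.07 (NLRC5) to 0.54 (PSMB8), with 0 called in each. In this diet fit PSMB8 (unadjusted edgeR p = 0.0159) and TAP1 (0.0342) alone among the members were below 0.05, beside 204 of 13127 genes. The 14 markers all had positive slopes on OASL, 0 of them called, and 3 of 14 were higher with starch. The symbol GZMA stood on more than 1 gene. The marker sum took a different GZMA entry from the covariate and these slopes. The part of these cells in the results was not tested further.

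Of the other marker lists, 10 macrophage and dendritic cell markers summed to 137 to 1774 CPM in controls and 139 to 1971 CPM in starch piglets, the 3 highest sums being those of starch 3, control 5 and control 8. They passed by r for TAP1 (r = 0.563, rho = 0.682) and TAPBP (r = 0.616, rho = 0.692, adjusted permutation p = 0.0255 for r), and without the 2 farthest piglets these r were 0.548 and 0.550. By rho PSMB8 (0.652, adjusted permutation p = 0.0111) and PSMB9 (0.639, adjusted permutation p = 0.0124) passed as well. Of the 10 genes 3 were higher with starch and 6 had positive slopes. Endothelial markers (4 of 5 measured, 119 to 422 CPM) passed for PSME1 alone, in the negative direction (r = -0.656, rho = -0.596, adjusted permutation p = 0.0186 for r, and r = -0.481 without the 2 farthest piglets), and all 4 were lower with starch and had negative slopes. The 8 B cell markers summed to 9.10 to 132 CPM in controls and 8.36 to 692 CPM in starch piglets, with starch 10 (692 CPM) and starch 9 (442 CPM) far above the other starch piglets (42.6 CPM or less). The median sum was 21.1 CPM in controls and 15.8 CPM in starch piglets, while the 5 tested genes all had higher means with starch (median 1.66 log2, 0 called). All 5 slopes were positive. The enterocyte and smooth muscle lists passed for no member, with 3 of 8 and 5 of 6 genes higher with starch and 8 of 8 and 1 of 6 positive slopes. With the enterocyte marker score as a covariate, the diet estimates of the members were 0.02 (NLRC5) to 0.43 (PSMB8) and their slopes on OASL 0.07 (PSME1) to 0.23 (TAP1), with 0 called in each. The part of the other cell types of this paragraph in the class I values was not tested.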

How the data were processed

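RNA-seq of distal small intestine from 21 piglets was used, 10 controls and 11 given wheat starch, grouped by sample title. The authors deposited 1 table per piglet with, per the file headers, an estimated count (expected count) and an FPKM value per transcript. The authors' expected counts are raw, while their deposited FPKM is adjusted for transcript length and library size. HISAT and DESeq2 are named, with no role or version, per the submitters' processing notes. The build, the annotation release and the tool that counted reads are not given in the sources used. At least 99.96% of the transcript lengths in each file were multiples of 3, so FPKM is per coding length.

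Expected counts were summed per gene and rounded to whole numbers, and transcripts not listed for a piglet were taken as 0. Of 18661 genes, 14276 (76.5%) matched a symbol. The main test was edgeR 4.0.16 (R 4.3.3), glmQLFit and glmQLFTest with TMM scaling, filterByExpr (minimum count 10, minimum total 15) and Benjamini-Hochberg adjustment over all tested genes at 0.05. The model was diet alone, diet plus OASL (log2 CPM, prior count 2, centred), or these with their product. Correlations used log2 CPM and two-sided permutation tests with 100000 resamples (numpy 2.4.6, with ranks from scipy 1.17.1), adjusted within each stated family. Level orders and ratios used FPKM. Permutation p-values of 1e-05 are the smallest these can give. Intervals and p-values reflect the spread between piglets. The edgeR fits of diet and of the slope on OASL were first tried on simulated counts with known changes. The fit with the product and the permutation tests were not tried in this way.

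Named genes were the members, OASL, PSMB7, up to 3 genes per list with the smallest p in each fit, and the 10 most alike. Others (EMC9, CXCL9, IRF1, PSMA1 and genes given for position or rank) were named after their values were seen. The members and all gene lists were chosen with earlier results of these data known. Alternatives were DESeq2 1.42.0, RLE or upper-quartile in place of TMM, voom, limma 3.58.1 on log2(FPKM + 0.5), log2(FPKM + 0.1) or log2(FPKM + 1), other filters, no diet term, marker covariates, the replicate number as a block, per-kilobase CPM, and leaving out piglets. The 20S core ratios and the refit of the block's piglets without it were chosen after seeing the data. The total counts were 6719264 to 8610458 per piglet. Counts of PSMB5, PSMB6, B2M and most class I heavy chains were not analysed here. Some genes are left out of the text and are not reported here.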

Additional observations from a re-analysis of the deposited data

How the results depend on the processing

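Over 59 results and 1839 alternative values, 1730 were labelled the same as the main run. For an estimate this meant the same direction and the same side of the threshold, whatever its size. For a count of genes or members it meant only a count within a fixed factor of the main count. The members called by diet, the genes called by diet, and the members and genes with slopes that differed by diet stayed at 0 in every alternative run. Without starch 7 and starch 9, 1 member (TAP2) had a slope past the threshold. The genes with a slope on OASL numbered 11 with the replicate number as a block, beside 60 for the same 20 piglets without the block, and 105 with the enterocyte marker score as a covariate. The block called 0 members. The labels do not say whether the numbers pair piglets. Of 10 same-numbered pairs, 4 had deviations correlated over 0.1 (range -0.34 to 0.48), and 1 of 20 piglets matched its own number best. These values were not set against a null distribution, so they do not decide whether the numbers mark pairs. The count of members correlated with OASL by r was 3 on log2(FPKM + 0.5), 8 without starch 7 and starch 9, 7 without control 5, control 8 and starch 3, and 0 to 9 when leaving out 1 piglet. Without those 3 piglets the diet difference was -0.016 in the PSMB10 to PSMB7 ratio and -0.066 in the PSMB10 to 20S core ratio (-0.026 to 0.12 leaving out 1 piglet).

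Among single genes the NLRC5 diet estimate turned to -0.014 with upper-quartile scaling, -0.016 without control 5, control 8 and starch 3, -0.11 without starch 7 and starch 9, and ran from -0.096 to 0.21 leaving out 1 piglet. That of OASL was -1.13 without starch 7 and starch 9. That of PSMB7 was -0.089 with the replicate block, -0.074 for the same piglets without it, -0.055 by limma with each of the 3 pseudocounts, and -0.074 to 0.11 leaving out 1 piglet. With the T and NK marker score as a covariate the slopes on OASL were -0.027 for PSMB7, -0.0034 for GBP1 and -0.030 for GBP2, and PSMF1 lost its call (slope 0.09, adjusted p = 0.0903), as it did under the replicate block with its slope still 0.11 (adjusted p = 0.9999). IRF2 passed by DESeq2 (0.0347) and without starch 7 (0.0236). PSMB8 minus PSMB10 was 0.0068 as CPM per kilobase and -0.045 to 0.020 leaving out 1 piglet. As CPM per kilobase, PSMB10 minus PSMB9 had an adjusted permutation p of 0.0501. The causes were not tested. The lowest total was 6719264 counts, and how far depth limits these comparisons was not tested.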
